A study of Mus musculus with 12 samples.

Results

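The genes described here encode the proteasome, with its activators and assembly factors, in the C2C12 line, mouse myoblasts that fuse into multinucleated myotubes when serum is changed. They were chosen by symbol, as the probes named Psma, Psmb, Psmc, Psmd, Psme, Psmf or Psmg followed by a number, and each gene was read by its brightest probe over the 12 arrays. The pattern matched 48 of 19057 genes with a probe. Of these, 46 are subunits or partners of the proteasome, and 2 (Psmc3ip and Psme3ip1) share only the start of a name and are given apart. Psmf1, a regulator of the core, had no probe mapped to it alone, so it was not analysed here.

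Total RNA was amplified to biotinylated cRNA and hybridised to Illumina bead arrays, 3 per stage. The stages were C2C12 myoblasts at 50% confluence, C2C12 myoblasts at 95% confluence, and C2C12 myotubes at 24 h and at 48 h of differentiation. All the cells are of this 1 line, for which the labels name no genetic change; the growing cells were kept in bovine calf serum, and differentiation was started in confluent cells with horse serum, insulin and transferrin. Replicates carry a number in the labels but no statement that they are separate cultures, so a p-value reflects only the spread among these arrays, which may be technical. Values are log2 intensities. A gene was tested if its probe exceeded the median of 6.684 on each of the 3 arrays of some stage, and it passed at an adjusted p under 0.05 (limma, Benjamini-Hochberg over 11883 genes).

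The proteasome is the barrel-shaped protease that degrades proteins tagged with ubiquitin. Its core particle stacks rings of alpha subunits, which gate the channel, around rings of beta subunits, of which Psmb5, Psmb6 and Psmb7 carry the protease sites. A regulatory particle, made of a base with a ring of ATPases and of a lid, binds the ubiquitin chain, removes it and threads the substrate into the core. Other caps, the Psme activators, open the gate without ubiquitin, and interferon exchanges the catalytic subunits for inducible ones. In muscle the ubiquitin-proteasome system is known for breaking down myofibrillar proteins during wasting.

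The labelled cell type was checked against marker genes. Of 8 myoblast and myotube markers 7 passed the filter, and all 7 rose from 95% confluence to 24 h, while Myf5 lay below the filter. From 50% to 95% confluence 3 of the 7 were lower and 0 higher in the limma fit, against 21.0% and 18.9% of all genes tested. These were Acta1 (-3.11), Myod1 (-0.71) and Myog (-0.59). Markers of other cells were dim: 0 of 4 adipocyte and 0 of 3 measured macrophage and leukocyte markers passed the filter, with 2 of 4 osteoblast, 3 of 4 endothelial and 1 of 4 neural markers just above it, at stage means of no more than 7.02. The highest of these, the osteoblast factor Sp7, fell from 50% to 95%. The summed linear intensity of the osteoblast list was 424 to 440 at 50%, 405 to 421 at 95%, 398 to 406 at 24 h and 396 to 405 at 48 h. That of the muscle list was 12300 to 15800 at 50%, 7970 to 13200 at 95%, 45600 to 54100 at 24 h and 74300 to 78900 at 48 h. The part of either list in the results below was not tested. Array 3 of the 95% group stood apart, with a correlation of 0.985 to 0.986 with its group and a residual SD of 0.196, against 0.0576 to 0.129 elsewhere. The second principal component (18.9% of the variance) put the arrays of 50% confluence and 48 h at -21.1 to -11.4, apart from those of 95% confluence and 24 h at 4.58 to 19.7. The labels name no batch for this split, and its part in the results below was not tested.

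Over the proteasome genes as a whole the changes were small and of both signs. Of the 46 genes 41 passed the filter, and 39 of these lay above the median on all 12 arrays. Psma1, Psma3, Psma6, Psmd3 and Psmg4 did not pass: no stage mean of theirs exceeded 6.69, which says nothing of the gene beyond that probe. Another 4 passed close to the median, with stage means of 6.70 to 6.92: Psma8, a testis alpha subunit, Psmb11, a thymus subunit, the inducible Psmb9, and the ATPase Psmc6. By the F-test 25 of 41 genes changed at some stage (61.0%), against 72.2% of all genes tested, and the stage means spanned a median of 0.30, against 0.43 over all genes. Of the 25 that changed, 12 were lowest in 50% confluent myoblasts (48.0%, against 27.2% of all genes that changed), 5 at 95%, 3 at 24 h and 5 at 48 h. Stage means were in ascending order over the course, tested or not, for 7 genes (Psmc1, Psmc3, Psmc4, Psmc5, Psmd4, Psmb5 and Psmb6) and in descending order for Psma5 and Psmg1. That is 17.1% and 4.88%, against 9.21% and 11.6% of all genes tested. RNA came from whole cultures, so a change per cell and a change in the share of cells cannot be told apart.

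**Figure D1:**
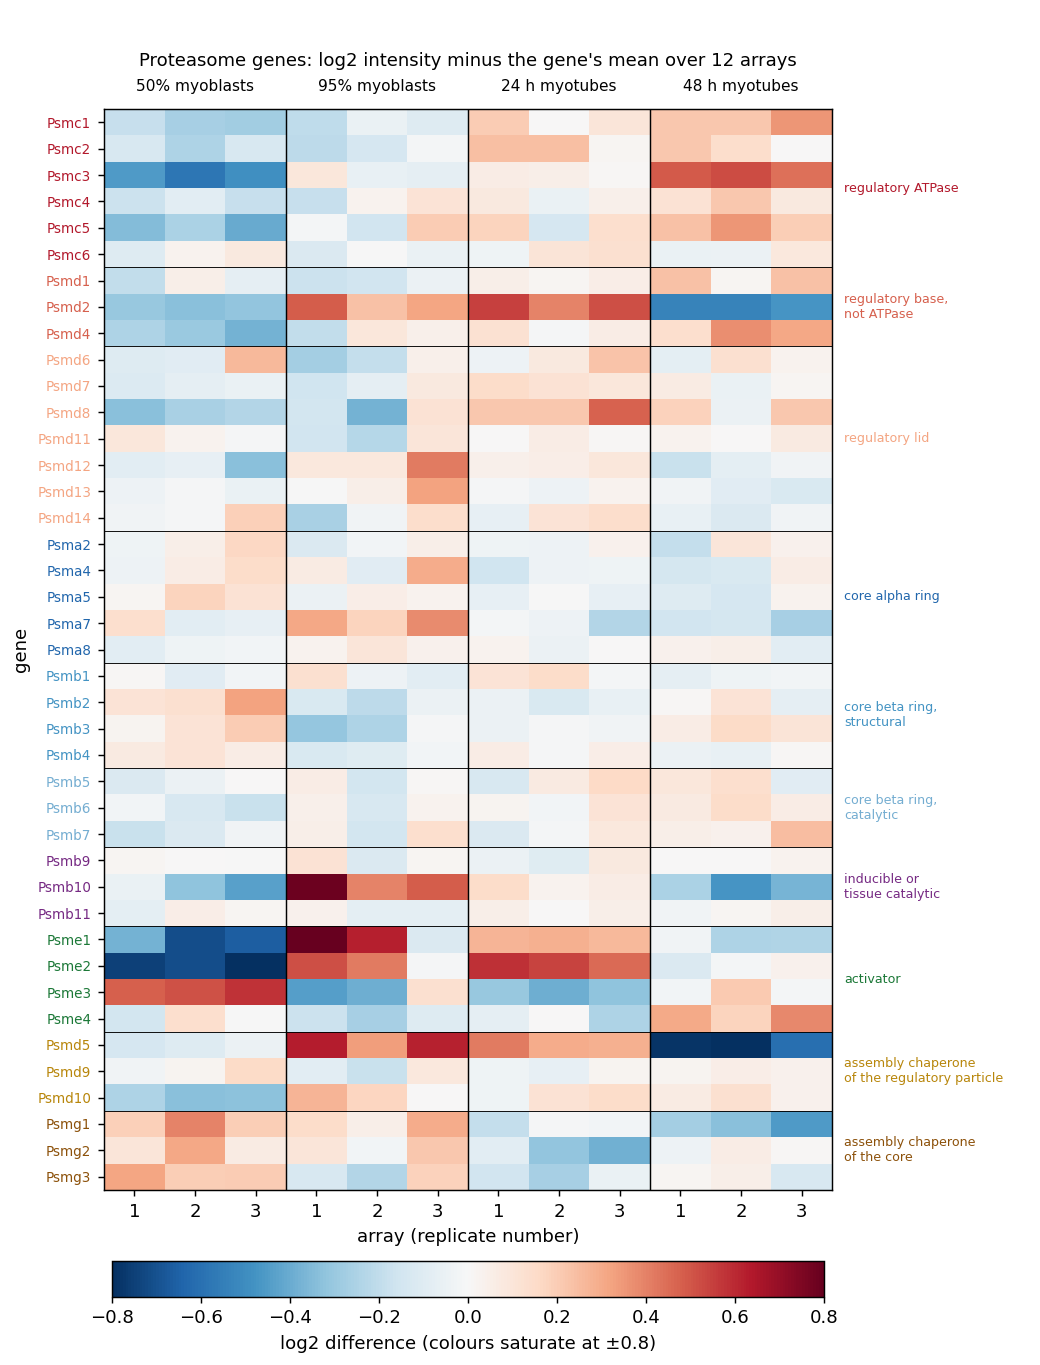
Log2 intensity minus the gene's mean over the 12 arrays (colour, saturated at 0.8 either way) for the 41 genes that passed the filter (rows, grouped by role) on each array (columns, by stage and replicate number). Psmc1, Psmc3, Psmc4 and Psmc5 run from low at 50% to high at 48 h, Psmc2 is highest at 24 h and Psmc6 is flat, most alpha and beta genes stay near their means, and Psmd2, Psmd5, Psmb10, Psme1 and Psme2 are highest at 95% or 24 h.

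Across the whole course, 48 h myotubes against 50% confluent myoblasts, the regulatory particle carried most of the rises. Over the module 13 genes were higher and 6 lower (31.7% and 14.6%), against backgrounds of 26.5% and 29.9% of all genes tested (56.5% in either direction). Arrays of both stages were fully apart for 23 of 41 genes (56.1%), against 65.9% of all genes. In the regulatory particle 8 of 16 genes were higher and 1 lower, with a median log2 change of 0.17. In the core 2 of 12 were higher and 1 lower, with a median of -0.05, and the median of all genes tested was -0.01. With the mean of probes the regulatory counts were also 8 and 1, but the lower gene was Psmd7 (-0.15, adjusted p = 0.0356), whose probes disagreed. Psmd2 then missed the threshold (-0.16, adjusted p = 0.0518). The same fit gave 2 core genes higher but 4 lower (Psma5, Psma7, Psmb2 and Psmb4). No member reached a 2-fold change over this span.

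The ATPases of the base form the ring that unfolds substrates. Of these 5 of 6 were higher at 48 h than at 50%, against 26.5% of all genes tested. Psmc3 moved most: 11.78, 11.65 and 11.74 at 50% confluence, 12.32, 12.17 and 12.16 at 95%, 12.29, 12.28 and 12.24 at 24 h, and 12.72, 12.75 and 12.67 at 48 h. Every 48 h array lay above every other array, and every 50% array lay below, a log2 change of 0.99 (SE of 0.06 and adjusted p = 2.12e-08) over the course, or 1.99-fold. It rose between 50% and 95% confluence (0.49, adjusted p = 4.31e-05) and again between 24 h and 48 h (0.45, adjusted p = 4.05e-05), with 0.05 (adjusted p = 0.506) in between.

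Psmc5 gave 11.44, 11.53 and 11.38 at 50% confluence, 11.77, 11.63 and 11.99 at 95%, 11.96, 11.65 and 11.92 at 24 h, and 12.02, 12.14 and 11.98 at 48 h. The 50% arrays were the lowest, and the whole course gave a log2 change of 0.59 (SE of 0.10 and adjusted p = 0.000262). A second Psmc5 probe gave 0.38 over the course but only 0.05 from 50% to 95%. There the brightest probe gave 0.34 (adjusted p = 0.0164; not past without array 3 (adjusted p = 0.0639) of the 50% group, nor with the mean of probes, 0.0667). Psmc1 read 11.19, 11.11 and 11.10 at 50% confluence, 11.17, 11.32 and 11.27 at 95%, 11.58, 11.38 and 11.47 at 24 h, and 11.59, 11.59 and 11.73 at 48 h. Its 48 h arrays lay above its 50% and 95% arrays, with a log2 change of 0.50 (SE of 0.06 and adjusted p = 2.98e-05). Of this 0.22 came between 95% and 24 h (adjusted p = 0.0169; not past without array 1 (adjusted p = 0.059) of the 95% group, or array 1 (0.0772) of the 24 h group, nor when only these groups were fitted, 0.0601).

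Psmc2 (0.28, adjusted p = 0.00921) and Psmc4 (0.29, adjusted p = 0.00461) rose less. The Psmc2 rise came in the first day of differentiation (0.29, adjusted p = 0.0136; not past without array 1 (adjusted p = 0.0591) or 2 (0.0575) of the 24 h group). Psmc6 had a change of -0.01 (adjusted p = 0.948) from a probe near the array median.

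Of the other base subunits, Psmd4, a receptor for ubiquitin chains, read 12.86, 12.81 and 12.73 at 50% confluence, 12.91, 13.20 and 13.15 at 95%, 13.23, 13.10 and 13.17 at 24 h, and 13.24, 13.48 and 13.42 at 48 h. Its 48 h arrays lay above all 50% arrays, with a log2 change of 0.58 (SE of 0.08 and adjusted p = 6.48e-05). The first part of that came by 95% confluence (0.29, adjusted p = 0.0154; not past without array 3 (adjusted p = 0.062) of the 50% group, or array 2 (0.0636) of the 95% group). Psmd1, the largest scaffold subunit of the base, rose by 0.24 (adjusted p = 0.0152; not past without array 1 (adjusted p = 0.0716) of the 50% group, or array 1 (0.0648) or 3 (0.0647) of the 48 h group), with overlapping arrays.

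Psmd2, a scaffold of the base that docks shuttle proteins, followed another course: 7.61, 7.58 and 7.60 at 50% confluence, 8.40, 8.15 and 8.23 at 95%, 8.46, 8.31 and 8.43 at 24 h, and 7.38, 7.38 and 7.44 at 48 h. The 95% and 24 h arrays lay above all 50% and 48 h arrays. It rose by 0.66 from 50% to 95% (SE 0.06, adjusted p = 1.63e-05) and changed by -1.0 from 24 h to 48 h (SE 0.06, adjusted p = 2.14e-07), 2.00-fold lower. A second probe gave 0.57 and -0.83, the same directions as the brightest. Over the whole course Psmd2 was lower by a log2 change of -0.19 (adjusted p = 0.0221; not past without array 1 (adjusted p = 0.0603) or 3 (0.0532) of the 50% group, or array 1 (0.0627) or 2 (0.0658) of the 48 h group; the mean of its probes gave an adjusted p of 0.0518).

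The lid, which holds the deubiquitinase Psmd14, changed little. In the limma fit 1 of 7 tested genes was higher over the course and 0 were lower, against 26.5% and 29.9% of all genes tested. The counts were also 1 higher and 0 lower at an unadjusted p under 0.05. With the mean of probes Psmd7 was lower (-0.15, adjusted p = 0.0356). The one that rose was Psmd8, with 11.58, 11.66 and 11.68 at 50% confluence, 11.77, 11.54 and 12.03 at 95%, 12.13, 12.13 and 12.39 at 24 h, and 12.10, 11.87 and 12.13 at 48 h. It rose in the first day of differentiation (0.44, adjusted p = 0.0109; not past without array 3 (adjusted p = 0.0546) of the 24 h group, nor when only these groups were fitted, 0.0506). It was 0.39 above the 50% level at 48 h (SE 0.12, adjusted p = 0.0112). A second probe near the array median gave 0.00 in the first day and 0.16 over the course, and the mean of probes gave 0.22 and 0.28 (adjusted p = 0.0146 and 0.00199). Psmd14 had a change of -0.12 (adjusted p = 0.323), and Psmd12 passed only from 50% to 95% (0.35, adjusted p = 0.0107, or 0.0966 with the mean of its probes).

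**Figure D2:**
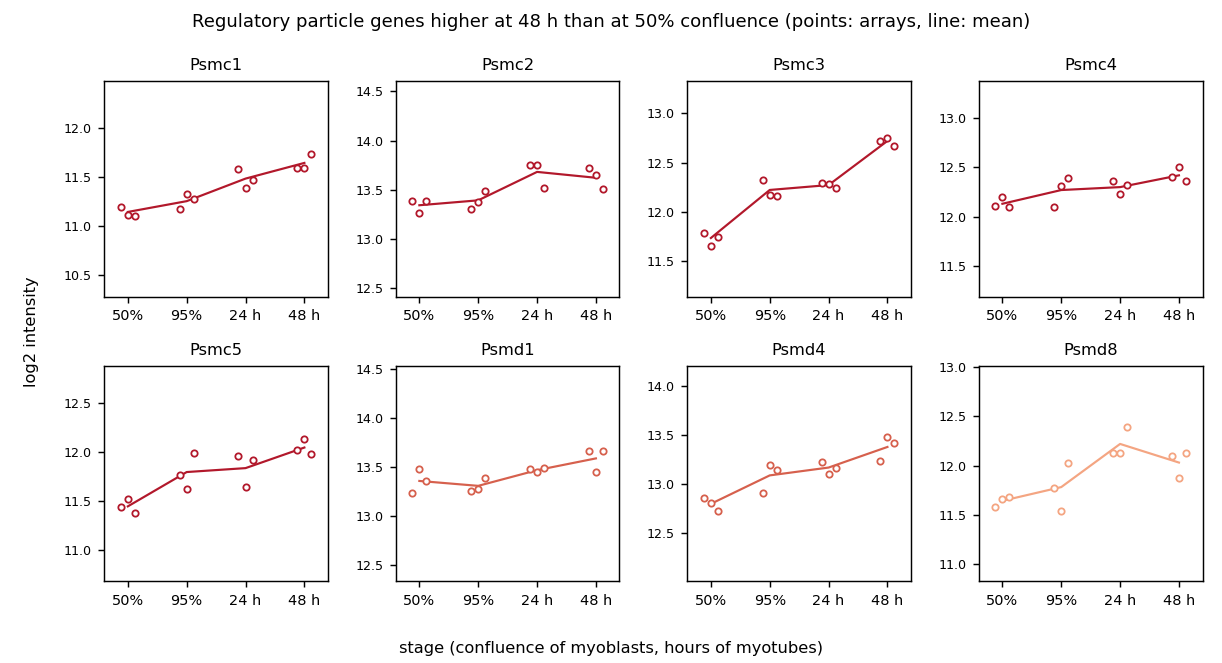
Log2 intensity (vertical axis, each panel spanning the same range) at the 4 stages for the 8 regulatory genes that were higher at 48 h than at 50% confluence; points are arrays and lines join the means. Psmc3 goes from a mean of 11.73 at 50% to 12.72 at 48 h, while the Psmd1 arrays overlap.

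The promoter windows of 3 of these rising genes are shown because all 3 were higher at 48 h than at 50%, although not by the same steps. No window was available for Psmc3, which rose most. Nfe2l1 and Nfe2l2, transcription factors known to drive proteasome genes, bind the antioxidant response element, whose core TGACNNNGC was searched on both strands with CCAAT and the core of the interferon-stimulated response element (ISRE), a pair of GAAA with 2 bases between. The windows, from RefSeq on GRCm38.p6, run from 250 bases before to 50 after the start site, 5′ to 3′, with matches in capitals. They lie at chr12:100109952-100110251 (+ strand) for Psmc1, chr11:106255935-106256234 (+ strand) for Psmc5 and chr3:95042565-95042864 (- strand) for Psmd4.
Psmc1: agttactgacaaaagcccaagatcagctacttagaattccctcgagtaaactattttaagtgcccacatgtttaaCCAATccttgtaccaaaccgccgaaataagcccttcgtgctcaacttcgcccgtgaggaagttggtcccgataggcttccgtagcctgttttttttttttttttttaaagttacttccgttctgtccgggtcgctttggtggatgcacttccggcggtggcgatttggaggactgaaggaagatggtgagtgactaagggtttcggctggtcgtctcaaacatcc
Psmc5: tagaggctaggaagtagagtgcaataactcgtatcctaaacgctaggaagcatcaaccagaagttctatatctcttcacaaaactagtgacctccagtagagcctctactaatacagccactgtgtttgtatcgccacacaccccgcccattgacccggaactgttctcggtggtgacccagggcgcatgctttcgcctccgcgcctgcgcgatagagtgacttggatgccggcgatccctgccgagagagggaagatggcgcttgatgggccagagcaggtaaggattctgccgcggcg
Psmd4: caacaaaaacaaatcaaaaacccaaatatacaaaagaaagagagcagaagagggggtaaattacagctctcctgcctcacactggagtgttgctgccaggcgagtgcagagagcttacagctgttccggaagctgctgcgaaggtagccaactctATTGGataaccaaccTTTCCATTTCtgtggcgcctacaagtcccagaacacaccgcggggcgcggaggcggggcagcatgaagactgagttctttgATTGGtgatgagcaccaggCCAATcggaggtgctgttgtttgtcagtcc
Psmc1 held a CCAAT at -175, Psmd4 held 3 CCAAT matches and 1 ISRE core on the reverse strand at -80, and Psmc5 held no match. Among 41 promoters of 38 member genes, TGACNNNGC was found in 6 (14.6%), against 12.4% of all 32851 promoters. CCAAT was found in 34.1% against 37.4%, and the ISRE core in 5 (12.2%) against 3.44%. Those 5 were the promoters of Psmb3, Psmd4, Psmd9, Psme1 and Psmg4. At confluence Psmd4 and Psme1 rose, Psmb3 fell, Psmd9 did not pass the threshold and Psmg4 was not tested. No ISRE core was found for Psme2, Psmb9 or Psmb10, although Psmb10 may have had no window. A link between this motif and the changes was not tested. In promoters of the genes higher at 48 h TGACNNNGC was in 2 of 13 (Psmb6 and Psme4, neither in the regulatory particle), and in those of the other tested members in 4 of 23. These counts describe letters in the windows and not binding.

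In the core particle the changes over the course were small and depended on the probe. Of 5 tested alpha-ring genes 0 were higher and 1 was lower at 48 h than at 50% in the limma fit, with 0 higher and 2 lower at an unadjusted p under 0.05. Of all genes tested 26.5% were higher and 29.9% lower. The 1 lower gene, Psma5, had a log2 change of -0.17 (adjusted p = 0.0227; not past without array 2 (adjusted p = 0.0967) or 3 (0.0606) of the 50% group, or array 1 (0.0789) or 2 (0.0893) of the 48 h group). Psma2 and Psma4 had changes of -0.08 and -0.12 (adjusted p = 0.422 and 0.298). Psma7, a subunit near the gate, was the alpha gene that moved between stages: 12.51, 12.29 and 12.31 at 50% confluence, 12.68, 12.55 and 12.75 at 95%, 12.36, 12.33 and 12.14 at 24 h, and 12.22, 12.23 and 12.11 at 48 h. The 95% arrays lay above all others. It rose by 0.29 at 95% (adjusted p = 0.0122; not past without array 2 (adjusted p = 0.0546) of the 50% group). It then fell, with a change of -0.38 to 24 h (SE 0.08, adjusted p = 0.0025). A second probe did the same (0.33 and -0.32). Over the course the brightest probe gave -0.19 (adjusted p = 0.065; past the threshold without array 3 (adjusted p = 0.0391) of the 95% group, and when only these groups were fitted, 0.0328). The second probe was lower over the course (-0.31), and the mean of probes passed (-0.25, adjusted p = 0.00564).

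Of the structural beta subunits 3 of 4 were lower at confluence, against 21.0% of all genes tested. Psmb2 (-0.31, adjusted p = 0.0037), Psmb3 (-0.30, adjusted p = 0.007, or 0.0529 when only these groups were fitted) and Psmb4 (-0.16, adjusted p = 0.0166; not past without array 2 (adjusted p = 0.0595) of the 50% group, or array 1 (0.0611) of the 95% group, nor when only these groups were fitted, 0.0761) fell from 50% to 95%. Psmb1 had a change of 0.04 (adjusted p = 0.696). Psmb2 read 13.10, 13.12 and 13.31 at 50% confluence, 12.87, 12.78 and 12.94 at 95%, 12.94, 12.87 and 12.93 at 24 h, and 13.0, 13.10 and 12.92 at 48 h. By the brightest probe none of the 4 differed at 48 h from 50% past the threshold, with changes of -0.17 to -0.01 and 0 past it in either direction (limma; 2 lower at an unadjusted p under 0.05). With single arrays left out Psmb2 did pass as lower over the course, without array 1 (adjusted p = 0.0423) of the 50% group, or array 3 (0.0349) of the 95% group, or array 2 (0.0295) of the 48 h group, and Psmb4 did so without array 3 (adjusted p = 0.046) of the 95% group. In the fit on the mean of probes both were lower, Psmb2 by a change of -0.21 (adjusted p = 0.00753) and Psmb4, read by 1 probe, of -0.11 (adjusted p = 0.0375).

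Of the constitutive catalytic subunits 2 of 3 were higher at 48 h than at 50%, against 26.5% of all genes tested. Psmb6, the caspase-like site, read 12.85, 12.74 and 12.69 at 50% confluence, 12.91, 12.74 and 12.90 at 95%, 12.89, 12.85 and 12.98 at 24 h, and 12.94, 13.02 and 12.93 at 48 h. Its 48 h arrays lay just above its 50% arrays, a log2 change of 0.21 (SE of 0.06 and adjusted p = 0.0129) that was lost without array 3 (adjusted p = 0.0573) of the 50% group, or array 2 (0.0543) of the 48 h group. Psmb7, the trypsin-like site, rose as much (0.21), at the edge of the threshold (adjusted p = 0.0495). It lost the call in 8 of 12 fits with an array left out (without array 1 (adjusted p = 0.153) or 2 (0.109) of the 50% group, or array 1 (0.0558) of the 95% group, or array 1 (0.0514), 2 (0.0655) or 3 (0.0521) of the 24 h group, or array 1 (0.0593) or 3 (0.201) of the 48 h group). Its 4 probes gave changes of 0.03 to 0.31 over the course. Psmb5, the chymotrypsin-like site, had a change of 0.10 (adjusted p = 0.334). In each step between stages 0 of these 3 genes passed in either direction by the brightest probe (limma, and 0 at an unadjusted p under 0.05). For Psmb7 the probe mattered: from 50% to 95% the brightest gave 0.11 (adjusted p = 0.33), but other probes differed. Of the other 3, 2 passed as higher (0.38 and 0.31), and the mean of probes rose by 0.22 (adjusted p = 0.00151). The first of those 2 then passed as lower from 24 h to 48 h (-0.37).

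The Psmb6 window is shown because it holds a TGACNNNGC, at -9 on the sense strand, and lies at chr11:70525107-70525406 (+ strand).
Psmb6: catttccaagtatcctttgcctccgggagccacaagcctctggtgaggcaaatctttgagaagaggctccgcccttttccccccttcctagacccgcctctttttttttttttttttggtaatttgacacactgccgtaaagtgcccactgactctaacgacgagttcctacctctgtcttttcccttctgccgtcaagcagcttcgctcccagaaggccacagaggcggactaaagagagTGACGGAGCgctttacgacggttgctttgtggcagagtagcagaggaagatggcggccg
Psmb5 held the other match among the catalytic subunits, at -47.

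Of the inducible catalytic subunits, Psmb10, which replaces Psmb7 under interferon, was clearly measured and moved: 9.76, 9.49 and 9.38 at 50% confluence, 10.60, 10.21 and 10.30 at 95%, 9.96, 9.84 and 9.87 at 24 h, and 9.56, 9.34 and 9.44 at 48 h. All 95% arrays lay above all others, and the 24 h arrays lay above the 50% and 48 h arrays. It rose by 0.83 to 95% (SE 0.11, adjusted p = 0.00015), or 1.78-fold, and fell in both later steps, with changes of -0.49 (adjusted p = 0.00487) and -0.44 (adjusted p = 0.00691). A second probe gave 0.72, -0.43 and -0.39. Psmb9, which replaces Psmb6, stayed at 6.71 to 6.75, beside the array median, and neither it nor Psmb11 passed in any comparison.

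All 4 activators changed by the F-test, against 72.2% of all genes tested. Psme1 and Psme2 form a joint ring that interferon induces and that is linked to peptide supply for class I antigen presentation. Psme2 read 8.63, 8.67 and 8.43 at 50% confluence, 9.89, 9.79 and 9.37 at 95%, 9.96, 9.92 and 9.83 at 24 h, and 9.26, 9.36 and 9.41 at 48 h. All arrays of the later stages lay above the 50% arrays. It rose by 1.11 from 50% to 95% (SE 0.12, adjusted p = 2.63e-05), 2.15-fold. It changed by 0.22 to 24 h (adjusted p = 0.173; past the threshold without array 1 (adjusted p = 0.045) of the 95% group). It fell to 48 h (-0.56, adjusted p = 0.00187), and stayed 0.76 above 50% (adjusted p = 0.000116). Whether its probe also reads the near-copy Psme2b was not tested.

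Psme1 read 10.51, 10.18 and 10.23 at 50% confluence, 11.83, 11.51 and 10.77 at 95%, 11.16, 11.17 and 11.15 at 24 h, and 10.86, 10.64 and 10.65 at 48 h. It rose by 1.06 to 95% (SE 0.20, adjusted p = 0.00143), 2.09-fold, and array 3 of the 95% group lay far below the others of its group. The later changes, -0.21, -0.45 and 0.41 over the whole course, did not pass with all arrays (adjusted p = 0.47, 0.0945 and 0.105). Without array 3 of the 95% group all 3 passed. The fall to 24 h was then -0.51 (adjusted p = 0.00142). The changes to 48 h and over the whole course kept their sizes, with adjusted p of 0.00101 and 0.00145. Those last 2 also passed without array 1 of that group (adjusted p = 0.0343 and 0.0403). Neither compares the 95% arrays, and with no array left out both passed when only the groups compared were fitted (adjusted p = 7.21e-05 and 0.00208).

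Psme3, the nuclear activator, ran the other way: 10.61, 10.64 and 10.71 at 50% confluence, 9.69, 9.74 and 10.26 at 95%, 9.83, 9.74 and 9.81 at 24 h, and 10.11, 10.34 and 10.12 at 48 h. The 50% arrays lay above all others. It fell by a log2 change of -0.76 to 95% (SE 0.12, adjusted p = 0.000521). It regained 0.39 between 24 h and 48 h (adjusted p = 0.0211; not past without array 2 (adjusted p = 0.0678) or 3 (0.0508) of the 24 h group, or array 2 (0.0899) of the 48 h group), and ended at -0.47 (adjusted p = 0.00599). Psme4, a large single-chain activator, read 11.61, 11.89 and 11.75 at 50% confluence, 11.58, 11.49 and 11.65 at 95%, 11.68, 11.76 and 11.51 at 24 h, and 12.06, 11.93 and 12.14 at 48 h. The 48 h arrays were the highest, with a rise of 0.39 in the second day (adjusted p = 0.00271) and of 0.29 over the course (adjusted p = 0.0113; not past without array 1 (adjusted p = 0.0548) of the 50% group, or array 3 (0.0516) of the 48 h group). A second Psme4 probe, near the array median, went the other way in the second day (-0.12), and with the mean of both probes neither call held (adjusted p = 0.0843 and 0.061).

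The windows of 3 activators are shown for the element matches among them; they lie at chr14:55578244-55578543 (+ strand) for Psme1, chr14:55590972-55591271 (- strand) for Psme2 and chr11:30771525-30771824 (+ strand) for Psme4.
Psme1: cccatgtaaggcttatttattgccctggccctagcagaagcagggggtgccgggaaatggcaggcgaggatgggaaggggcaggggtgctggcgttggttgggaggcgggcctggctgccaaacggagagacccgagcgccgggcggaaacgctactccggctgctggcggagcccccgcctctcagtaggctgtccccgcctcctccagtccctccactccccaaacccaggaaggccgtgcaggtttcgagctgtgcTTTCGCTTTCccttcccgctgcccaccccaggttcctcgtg
Psme2: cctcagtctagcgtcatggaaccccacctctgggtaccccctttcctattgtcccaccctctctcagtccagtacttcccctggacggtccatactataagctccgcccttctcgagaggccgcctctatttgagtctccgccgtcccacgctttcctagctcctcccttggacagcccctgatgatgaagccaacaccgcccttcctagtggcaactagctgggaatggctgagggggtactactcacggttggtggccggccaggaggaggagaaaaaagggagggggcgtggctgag
Psme4: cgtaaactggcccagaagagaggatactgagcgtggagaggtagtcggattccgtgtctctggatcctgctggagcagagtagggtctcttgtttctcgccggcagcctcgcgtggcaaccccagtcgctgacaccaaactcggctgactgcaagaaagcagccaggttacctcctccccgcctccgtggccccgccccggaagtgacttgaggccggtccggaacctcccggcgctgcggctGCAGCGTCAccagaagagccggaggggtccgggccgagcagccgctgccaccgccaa
Psme1 held the ISRE core on the reverse strand at 10, Psme4 held TGACNNNGC on the reverse strand at -7, and this Psme2 window, 1 of 2 in the table, held no match.

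**Figure D3:**
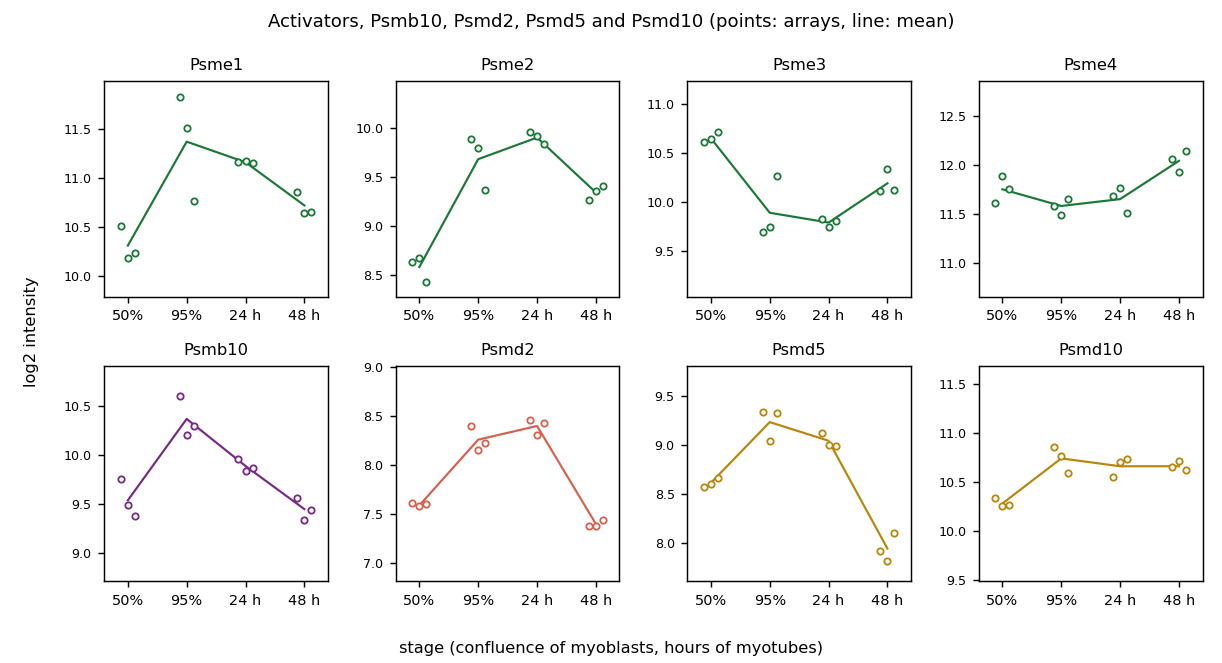
Log2 intensity (vertical axis, each panel spanning the same range) at the 4 stages for the 4 activators, Psmb10, Psmd2, Psmd5 and Psmd10; points are arrays and lines join the means. Psme1, Psme2, Psmb10, Psmd2 and Psmd5 have their highest mean at 95% or 24 h, Psme3 its highest at 50%, and array 3 of the 95% group sits apart for Psme1, Psme2 and Psme3.

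Assembly chaperones of the regulatory particle bind the ATPases before they join. Psmd5 showed the largest fall in the module: 8.57, 8.60 and 8.66 at 50% confluence, 9.33, 9.04 and 9.32 at 95%, 9.12, 9.0 and 8.99 at 24 h, and 7.92, 7.81 and 8.10 at 48 h. Its 48 h arrays lay below all others. It rose by 0.62 to 95% (SE 0.09, adjusted p = 0.000202) and changed by -1.09 from 24 h to 48 h (SE 0.09, adjusted p = 1.17e-06), 2.13-fold lower, ending -0.67 from the 50% level (adjusted p = 3.5e-05). Psmd10, which also binds the retinoblastoma protein, read 10.34, 10.25 and 10.26 at 50% confluence, 10.86, 10.76 and 10.59 at 95%, 10.55, 10.70 and 10.73 at 24 h, and 10.65, 10.71 and 10.62 at 48 h. Its 50% arrays lay below all others, with a rise of 0.46 to 95% (adjusted p = 0.000412) that was kept at 48 h (0.38, adjusted p = 0.000619). Its 2 further probes rose by 0.27 and 0.38. Psmd9 had a change of -0.01 (adjusted p = 0.882).

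Psmg1, Psmg2 and Psmg3 are chaperones of alpha-ring assembly. Psmg1 read 9.91, 10.12 and 9.92 at 50% confluence, 9.87, 9.77 and 10.02 at 95%, 9.53, 9.71 and 9.70 at 24 h, and 9.45, 9.39 and 9.27 at 48 h. All 48 h arrays were below the rest, with a log2 change of -0.61 (SE of 0.08 and adjusted p = 4.61e-05). The first step was -0.24 to 24 h (adjusted p = 0.0396; not past without array 1 (adjusted p = 0.0633) or 3 (0.104) of the 95% group, or array 1 (0.156), 2 (0.0525) or 3 (0.0596) of the 24 h group, or array 2 (0.0538) of the 48 h group). The second was -0.27 to 48 h (adjusted p = 0.0174; not past without array 2 (adjusted p = 0.067) or 3 (0.0659) of the 24 h group, or array 3 (0.0751) of the 48 h group). Psmg2, the partner of Psmg1, fell to 24 h (-0.35, adjusted p = 0.00858). It regained 0.26 by 48 h (adjusted p = 0.0323; not past without array 2 (adjusted p = 0.103) or 3 (0.136) of the 24 h group, or array 1 (0.0517), 2 (0.102) or 3 (0.0727) of the 48 h group). Psmg3 was lower from 50% to 95% (-0.30, adjusted p = 0.0307; not past without array 1 (adjusted p = 0.101), 2 (0.056) or 3 (0.0594) of the 50% group, or array 1 (0.0955) or 2 (0.124) of the 95% group). It was also lower over the course (-0.26, adjusted p = 0.0405; not past without array 1 (adjusted p = 0.129), 2 (0.0631) or 3 (0.0666) of the 50% group, or array 1 (0.055) of the 24 h group, or array 1 (0.0661), 2 (0.0505) or 3 (0.145) of the 48 h group).

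**Figure D4:**
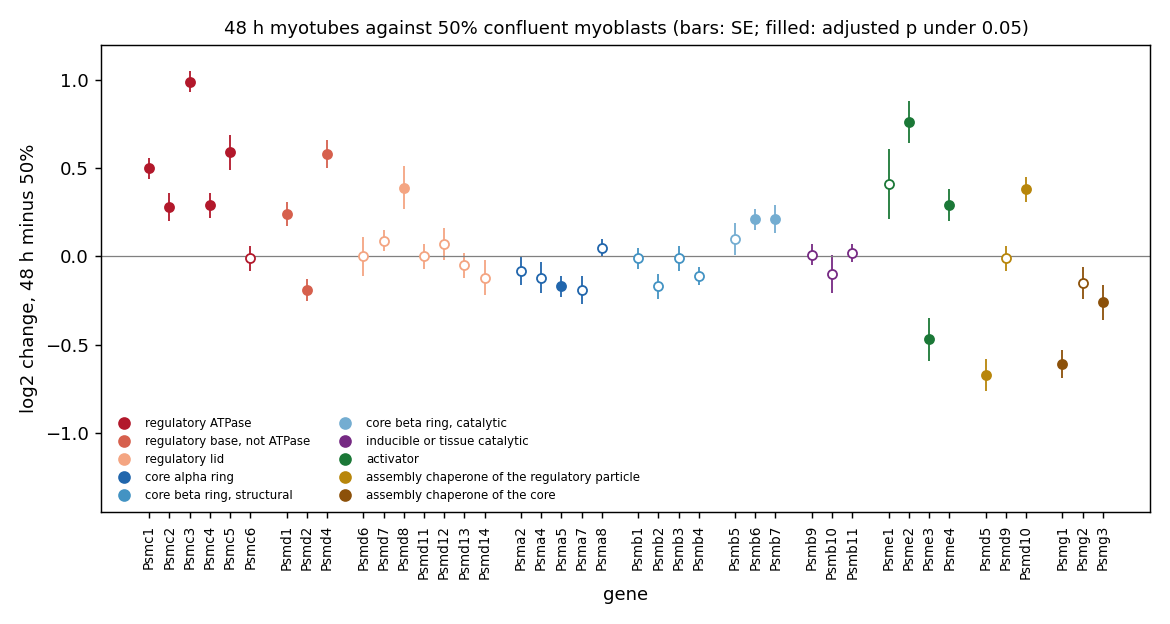
Log2 change from 50% confluent myoblasts to 48 h myotubes (vertical axis) for each tested gene (horizontal axis, grouped and coloured by role); bars are the SE of the fit, and filled points passed at an adjusted p under 0.05. The ATPases lie above 0 except Psmc6, the core rings lie within 0.21 of 0, and the largest values are 0.99 for Psmc3 and -0.67 for Psmd5.

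By step, 16 of 41 genes passed the test at confluence, a share near that of all genes tested (39.9%). In the first and second days of differentiation 8 and 9 of 41 passed, below the shares of all genes (37.2% and 44.8%). The differences between these counts and shares were not themselves tested. From 50% to 95% confluence 11 of 41 genes were higher and 5 lower, against 18.9% and 21.0% of all genes tested (39.9% either way), and the groups did not overlap for 18 genes (43.9%, against 43.7%). The 4 largest rises were Psme2, Psme1, Psmb10 and Psmd2, and the 5 that fell were Psme3, Psmb2, Psmb3, Psmg3 and Psmb4. In the first day of differentiation 4 were higher and 4 lower, against 15.9% and 21.3% of all genes tested (37.2% either way), with 10 genes not overlapping (24.4%, against 45.7%). Of the 4 counted as higher, Psmd8, Psmc2 and Psmc1 belong to the regulatory particle, and the other was the brightest probe of Psmd7, whose probes disagreed. Those lower were Psmb10, Psma7, Psmg2 and Psmg1. The call on that Psmd7 probe (0.17, adjusted p = 0.0398, against -0.01 and 0.907 with the mean of its probes) was lost in 9 of 12 fits with an array left out (without array 1 (adjusted p = 0.0502), 2 (0.0548) or 3 (0.051) of the 50% group, or array 1 (0.14) or 2 (0.0901) of the 95% group, or array 1 (0.117), 2 (0.0846) or 3 (0.0696) of the 24 h group, or array 3 (0.0544) of the 48 h group).

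In the second day 4 genes were higher (Psmc3, Psme3, Psme4 and Psmg2) and 5 lower (Psmd5, Psmd2, Psme2, Psmb10 and Psmg1), against 22.8% and 22.1% of all genes tested (44.8% either way), and 18 did not overlap (43.9%, against 62.0%). In the core 0 of 12 genes passed in either direction in that step by the brightest probe (limma), with 0 higher and 0 lower at an unadjusted p under 0.05. With the mean of probes Psma7 was lower (-0.21, adjusted p = 0.0198), and with array weights Psmb1 was lower and Psmb3 higher (adjusted p = 0.0453 and 0.0436). In the regulatory particle the brightest probe gave 1 higher and 1 lower of 16, and the mean of probes 5 and 1. Psmc1 (0.16, adjusted p = 0.0496), Psmc5 (0.22, 0.0415), Psmd1 (0.24, 0.00979) and Psmd4 (0.21, 0.0463) then joined Psmc3 as higher. Psmc1 and Psmd4 were read by 1 probe each, so no further probe stands behind these 2 calls. The main limma fit gave them the same changes, just short of the threshold (adjusted p = 0.0606 and 0.0516). Median changes of the module were 0.04, 0.05 and 0.00 in the 3 steps, beside 0.00, -0.02 and -0.01 over all genes. These comparisons share arrays with their neighbours. The largest changes were 1.11 for Psme2 at confluence and -1.09 for Psmd5 in the second day.

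More than 1 probe passed the filter for 20 of the 41 genes. From 50% to 95% the brightest probe was called for 8 of these, and all its other probes had the same call for 6. Over the whole course 9 were called, with the same call by all probes for 5 and no probe called the other way. An opposite call occurred for Psmd7 to 24 h and for Psme4 to 48 h. The Psmd7 probes, for a lid subunit that holds the deubiquitinase, disagreed throughout: from 50% to 95% they gave 0.03, 0.45 and -0.56, from the brightest to the dimmest, and from 24 h to 48 h -0.11, -0.77 and 0.55. From 95% to 24 h they gave 0.17, 0.15 and -0.36, so the count of 4 higher in that step holds 1 gene with no settled direction.

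Of the name matches that are not subunits, Psmc3ip, a cofactor of meiotic recombination, read 9.88, 9.80 and 9.77 at 50% confluence, 9.69, 9.77 and 10.32 at 95%, 9.19, 9.09 and 9.27 at 24 h, and 8.73, 8.74 and 8.63 at 48 h. The 48 h arrays were the lowest. It fell by a log2 change of -0.74 to 24 h and -1.12 over the course (adjusted p = 0.000835 and 1.3e-05). Psme3ip1, a nuclear protein that binds Psme3, rose by 0.26 to 24 h (adjusted p = 0.00898) and had a change of 0.09 over the course (adjusted p = 0.283).

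Genes that control or serve the proteasome were read from lists chosen by function. In the list of Nfe2l1 and Nfe2l2 control 9 of 12 genes were tested, and 2 were higher and 5 lower at 48 h than at 50%, against 26.5% and 29.9% of all genes tested. Nfe2l1, the factor that restores proteasome transcription when the protease is inhibited, read 11.49, 11.44 and 11.57 at 50% confluence, 11.18, 11.19 and 10.99 at 95%, 11.85, 11.91 and 11.81 at 24 h, and 12.72, 12.83 and 12.73 at 48 h. All 48 h arrays lay above all others, and the 95% arrays below. It fell by a log2 change of -0.38 to 95% (adjusted p = 0.00068). It then rose by 0.74 and 0.90 in the days of differentiation and ended 1.26 above the 50% level (adjusted p = 9.83e-09). Nfe2l2, the oxidative stress factor, was highest at 95%, with a rise of 0.84 (adjusted p = 0.000101) and a change of -0.71 in the second day (adjusted p = 0.000179). Over the whole course Nfe2l2 had a change of -0.07 (adjusted p = 0.629). Its known targets Gclm (-2.09) and Nqo1 (-1.44) fell most over that span (adjusted p = 2.5e-08 and 1.98e-08). The partner Mafg rose by 0.32 by its brightest probe (adjusted p = 0.00201), but the mean of its probes did not pass (0.14, adjusted p = 0.0697).

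Of 6 tested proteasome-bound proteins 1 was higher and 2 were lower over the course, against 26.5% and 29.9% of all genes tested. The 1 higher was Ecpas (0.29, adjusted p = 0.0134; not past without array 1 (adjusted p = 0.0531) or 2 (0.067) of the 50% group). Uchl5, a deubiquitinase of the regulatory particle, read 10.84, 10.95 and 11.12 at 50% confluence, 10.72, 10.77 and 11.10 at 95%, 10.27, 10.32 and 10.33 at 24 h, and 10.02, 9.99 and 10.18 at 48 h. This was a change of -0.91 (adjusted p = 8.43e-06), with all 48 h arrays below all 50% arrays. Usp14, the other bound deubiquitinase, had -0.30 (adjusted p = 0.0226; not past without array 3 (adjusted p = 0.107) of the 50% group, or array 1 (0.0848) or 2 (0.0807) of the 48 h group). The small lid subunit Sem1 and the core assembly factor Pomp had changes of -0.01 and 0.01 (adjusted p = 0.96 and 0.879). Of the shuttle and segregase list 2 of 7 tested genes were higher and 1 lower over the course, against 26.5% and 29.9% of all genes tested. Nsfl1c (0.46) and the unfoldase Vcp (0.35) were higher (adjusted p = 0.000736 and 0.000115). Ubqln4, a shuttle receptor, read 9.62, 9.54 and 9.66 at 50% confluence, 8.67, 8.66 and 9.14 at 95%, 8.60, 8.49 and 8.49 at 24 h, and 9.57, 9.64 and 9.51 at 48 h. Both the 50% and the 48 h arrays lay above all 95% and 24 h arrays (-0.78 to 95%, adjusted p = 0.000168, and 1.05 in the second day, adjusted p = 8.71e-06). Of 6 ubiquitin and E1 genes Uba6 alone was tested, with -0.14 (adjusted p = 0.794).

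In the list of class I antigen processing and interferon regulators, 4 of 6 tested genes (Tapbp, Tap2, Irf1 and B2m) were higher at 95% than at 50%, and 0 lower (limma, 0 at an unadjusted p under 0.05), against 18.9% and 21.0% of all genes tested. Tapbp, the chaperone tapasin, read 7.24, 7.34 and 7.09 at 50% confluence, 8.34, 7.73 and 7.72 at 95%, 8.31, 8.24 and 8.12 at 24 h, and 7.35, 7.32 and 7.54 at 48 h. It rose by 0.71 (adjusted p = 0.00227) and changed by -0.83 in the second day (adjusted p = 0.000538), with the 95% and 24 h arrays above all others. Tap2, a peptide transporter subunit, rose by 0.64 (adjusted p = 0.012) and changed by -0.57 in the second day (adjusted p = 0.0196; not past without array 2 (adjusted p = 0.0624) of the 24 h group, or array 2 (0.0607) of the 48 h group). Like Psme1 it was lowest among the 95% arrays on array 3. Irf1, an interferon-regulated factor, had 0.32 at 95% (adjusted p = 0.0331; not past without array 2 (adjusted p = 0.105) or 3 (0.0826) of the 50% group, or array 1 (0.0683) of the 95% group). B2m, the light chain of class I molecules, had 0.23 (adjusted p = 0.0384). It lost the call in 8 of 12 fits with an array left out (without array 2 (adjusted p = 0.0564) or 3 (0.114) of the 50% group, or array 1 (0.138) or 2 (0.14) of the 95% group, or array 1 (0.0522), 2 (0.0531) or 3 (0.0526) of the 24 h group, or array 2 (0.0524) of the 48 h group). Irf1 and B2m were both lost without array 2 or 3 of the 50% group, or array 1 of the 95% group, and each of these fits left 2 of the 4.

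Among related complexes, the COP9 signalosome, built on the plan of the lid, had 1 gene higher (Cops5, 0.42) and 2 lower of 9 over the course, with a median of -0.09. The CCT chaperonin, which folds actin and tubulin, had 0 higher and 6 lower of 8 (limma, with 0 higher and 6 lower at an unadjusted p under 0.05) and a median of -0.36. Of all genes tested 26.5% were higher and 29.9% lower. Lowest were Cct6a (-0.81) and Cct3 (-0.43).

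**Figure D5:**
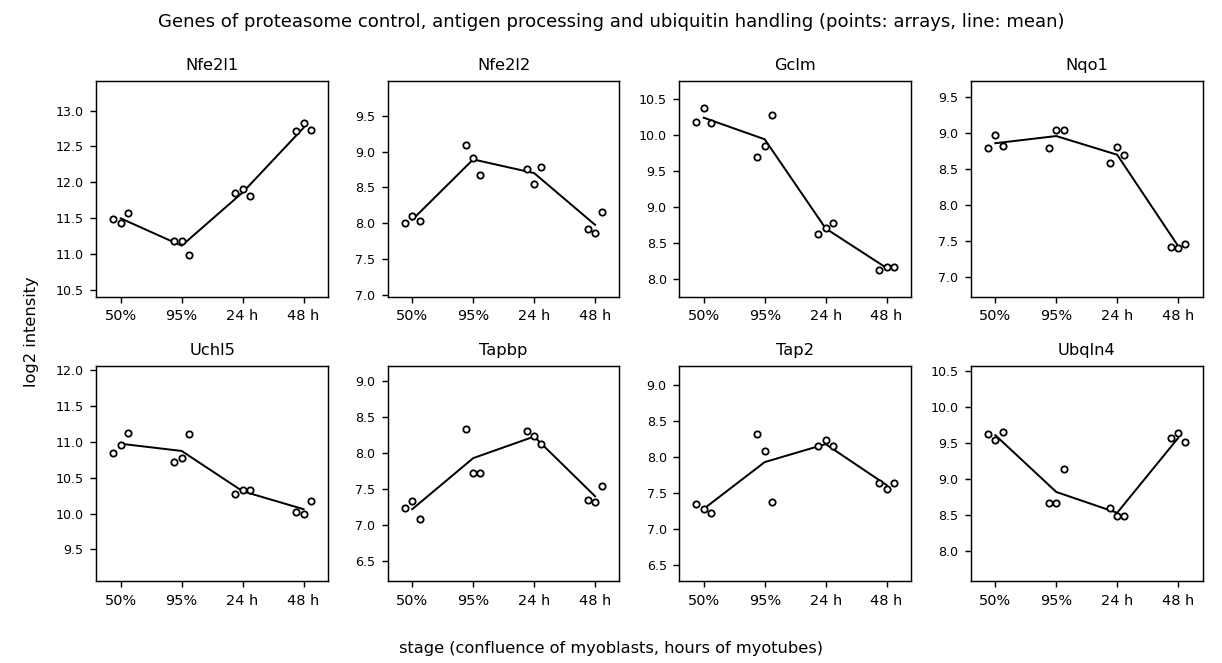
Log2 intensity (vertical axis, each panel spanning the same range) at the 4 stages for 8 genes of proteasome control, antigen processing and ubiquitin handling; points are arrays and lines join the means. Nfe2l1 climbs from 95% confluence to 48 h, Gclm, Nqo1 and Uchl5 fall, and Tapbp and Tap2 are highest at 24 h.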

How the data were processed

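RNA of C2C12 cells at 4 stages, 3 arrays each, was measured on Illumina bead arrays. The deposited table holds log2 intensities that the authors had normalized; the submitters' processing notes name RMA and lumi, with no version, and the order and background correction are not given in the sources used here. The log2 base was read from the values, 6.319 to 15.253 with a median of 6.684 on each array; a variance-stabilised scale, which lumi can give, would shrink the changes of dim probes. The 12 sorted columns differed by at most 0.003, so levels are relative to an equal distribution on every array, and a change shared by all genes would not be seen.

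Of 45281 probes 34885 had 1 gene in the platform annotation, 18 several and 10378 none; symbols were updated through the gene ID for 34807. A probe was kept if it exceeded the median on each of the 3 arrays of some stage (19403 probes, 11883 genes, the brightest for each gene), and 1 gene that matches the name pattern is not reported here. All kept genes were fitted over 4 groups with limma 3.58.1 in R 4.3.3 (lmFit and eBayes, 2-sided, residual df 8, prior df 3.59) with Benjamini-Hochberg adjustment at 0.05; the script was tested on simulated data. The 3 arrays a group limit the precision.

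Genes named in each comparison were the 4 largest rises and falls past the threshold, members past it against the direction of most, the catalytic subunits and activators, and those below the filter; other members, list genes and single arrays named in the text were chosen after their values were seen. The members, lists and the ISRE motif were chosen with earlier results of these data known. Other filters, the mean of probes, centring, variance models, array weights, a replicate term and left-out arrays were tried. A second table, of values before normalization, has 24 columns that match no label; these were not used, so the planned neqc normalization was not run. Promoters are from RefSeq (GRCm38.p6), with 38 of the 46 genes matched.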

Additional observations from a re-analysis of the deposited data

How the results depend on the processing

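Members called at some stage numbered 21 to 27 with each array left out in turn. From 50% to 95%, 9 to 13 were then higher and 3 to 7 lower, with a median change of -0.01 to 0.07. The lower count was 3 without array 2 of the 50% group or array 1 of the 95% group. From 95% to 24 h, 1 to 9 were higher and 3 to 6 lower (median 0.01 to 0.08). The higher count was 9 without array 3 of the 95% group, 1 without array 1 of the 24 h group and 2 without array 2 or 3 of that group. From 24 h to 48 h, 2 to 7 were higher and 4 to 6 lower (median -0.02 to 0.01), with 7 higher without array 3 of the 95% group and 2 without array 2 or 3 of the 24 h group. Over the whole course, 10 to 14 were higher and 3 to 9 lower (median 0.00 to 0.03), with 3 lower without array 3 of the 50% group or array 1 of the 48 h group. When only the groups compared were fitted, 2 were lower from 50% to 95%, 1 was higher to 24 h and 8 were higher to 48 h. In the step from 24 h to 48 h the mean of probes gave 7 higher, and array weights gave 8 higher and 8 lower. The cause of these moves was not tested, beyond the smaller number of arrays in the fits that left some out.

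Counts under the other filters, centring and variance model stayed within 1.5 times those reported. Of 3418 values for single members under an alternative, 3249 kept their direction and side of the threshold, 97 lost the call, 70 gained one and 2 reversed, both for Psmd7 with the mean of its disagreeing probes (-0.01 to 24 h and -0.15 over the course). Calls kept in all 21 alternative settings were 9 of 16 from 50% to 95%, 3 of 8 to 24 h, 5 of 9 to 48 h and 12 of 19 over the whole course. Deviations from the group mean correlated weakly between arrays with the same replicate number (18 pairs, -0.0907 to 0.333, median 0.0477). Between arrays with other numbers they correlated at -0.349 to 0.213 (median -0.0218), and 8 of 12 arrays correlated best with their own number. Whether arrays with the same number share a source was not tested. With the number as a replicate block, 24 members changed at some stage, 11 were higher and 5 lower from 50% to 95%, 4 and 3 to 24 h, 4 and 5 to 48 h, and 13 and 6 over the course. Genes near the array median are limited by signal over background, and their lack of a call is not a lack of change.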
